A study of Rattus norvegicus with 9 samples.

Results

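The immediate early genes and dual-specificity phosphatases described here were a set of 10 rat genes, listed by Ensembl identifier as Fos (ENSRNOG00000008015), Jun (ENSRNOG00000026293), Junb (ENSRNOG00000042838), Fosl1 (ENSRNOG00000020552), Egr1 (ENSRNOG00000019422), Myc (ENSRNOG00000004500), Klf4 (ENSRNOG00000016299), Ier3 (ENSRNOG00000000827), Dusp1 (ENSRNOG00000003977) and Dusp6 (ENSRNOG00000023896), by a rule that uses no measured value. Of these, 8 had a row in the gene table used here, among 30560 genes in all. No row was found for the identifiers listed for Junb and Dusp1, and these genes were not analysed here. Whether they have a row under another identifier could not be checked. The names are those of the list, because the tables carry identifiers alone and the reference table supplied pairs none of them with a symbol. The list was chosen with earlier results of these data known. All 8 passed the filter of a mean of 1 TPM over the libraries, which left 12192 genes for testing.

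Immediate early genes are switched on by growth factors, cytokines and stress without a need for new protein synthesis, and most of their transcripts are short-lived. They encode transcription factors such as the AP-1 proteins FOS and JUN, the zinc finger proteins EGR1 and KLF4 and the growth regulator MYC, which together shape the later response of a cell. Dual-specificity phosphatases, which remove phosphate from MAP kinases, are induced by the same kinases and limit how long the signal lasts. In mesangial cells, which support the capillaries of the glomerulus, these genes are known to respond to mitogens and inflammatory signals.

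The RNA came from the rat mesangial cell line HBZY-1, in 3 groups of 3 libraries. The first group received a water extract of lyophilized powder of Poecilobdella manillensis, a blood-feeding leech, at what the label calls a high dose. The second was induced with LPS, a component of the bacterial outer membrane used to model inflammation, and the third was labelled control. The labels give no dose and no time of exposure, and do not state whether the extract group was also given LPS or what the control cells received. The replicates are called biological, without a statement that they came from separate days, so the p-values measure the spread between these libraries. Levels are in TPM, a transcript's share of the library after correction for its length, scaled to 1000000 in all, and sequencing depth is unknown. In bulk RNA, fewer cells that express a gene and less RNA per cell cannot be told apart.

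The promoter entries of RefSeq (rat build GRCr8) covered 4 of the 8 genes, Fosl1, Klf4, Egr1 and Dusp6. Those of Egr1 and Fosl1 are printed, 250 bases up to the base before the start and on the plus strand, because their windows do not overlap the annotated gene. Capitals mark CArG boxes, the serum response elements bound by SRF, and CRE cores (TGACG, which reads CGTCA on the opposite strand), part of the cyclic AMP response element.
Egr1, chr18:26736828-26737077: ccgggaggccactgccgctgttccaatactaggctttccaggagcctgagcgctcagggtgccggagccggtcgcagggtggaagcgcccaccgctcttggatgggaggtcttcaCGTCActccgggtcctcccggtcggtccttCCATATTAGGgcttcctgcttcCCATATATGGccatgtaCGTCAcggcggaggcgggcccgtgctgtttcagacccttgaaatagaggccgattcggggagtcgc
Fosl1, chr1:212183635-212183884: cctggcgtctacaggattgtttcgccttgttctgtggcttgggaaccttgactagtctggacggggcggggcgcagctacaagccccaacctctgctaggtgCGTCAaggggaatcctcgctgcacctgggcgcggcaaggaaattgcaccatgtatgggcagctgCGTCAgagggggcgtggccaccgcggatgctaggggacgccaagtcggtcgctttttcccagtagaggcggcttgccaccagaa
The Egr1 window held 2 CArG boxes, at -105 to -96 and at -83 to -74 from the start, and 2 CRE cores, beginning at -135 and -66. The Fosl1 window held 2 CRE cores, beginning at -148 and -84, and no CArG box. Over all 33469 rat promoter windows of this length, searched on both strands, 1.5% held a CArG box and 18.2% a CRE core. No match was found in either window for the full CRE (TGACGTCA, which contains the core, 1.59% of all windows), the AP-1 site (TGANTCA, 6.34%), the EGR site (GCGNGGGCG, 4.29%), the MYC E-box (CACGTG, 5.59%) or the NF-kB site (6.33%). The windows of Klf4 and Dusp6, which overlap the annotated gene and are not printed, held none of these 7 motifs.

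Libraries of a group differed unevenly for these genes. LPS replicate 2 had the highest value of the 3 LPS libraries for all 8 genes. Over all 12192 tested genes it was the highest of the 3 for 20.8% and the lowest for 46.7%, so it was also uneven beyond these genes. LPS replicate 1 was the lowest of the 3 for 7 of the 8, against 32.4% of all tested genes. In the extract and control groups no library was highest for more than 4 of the 8. Extract replicate 3 and control replicate 3 were each highest for 4, against 33.6% and 33.1% of all tested genes. Extract replicate 1 was lowest for 5 and control replicate 1 for 6, against 37.5% and 32.6% of all tested genes. Results that changed markedly without LPS replicate 2 are given with and without it. Across the 12192 tested genes the libraries of a group correlated at 0.9766 or more on the log2(TPM + 1) scale (Pearson's r across genes). Those of different groups correlated at 0.9689 or less.

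**Figure D1:**
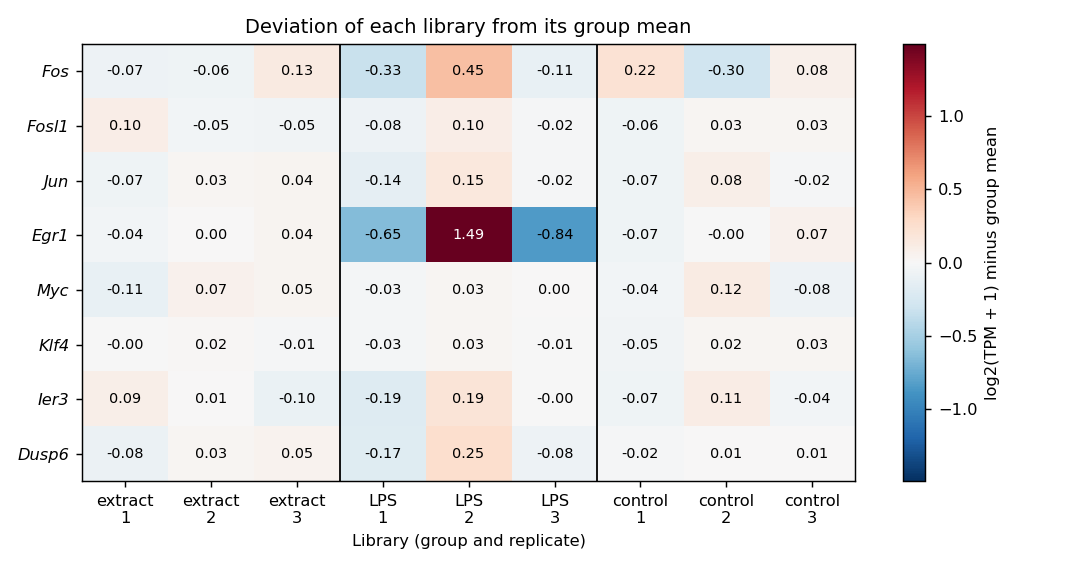
Deviation of each library from the mean of its own group, as log2(TPM + 1), for the 8 genes (rows) in the 9 libraries (columns; extract, LPS and control, replicates 1 to 3). The LPS replicate 2 column is above its group mean in every row, by 1.49 for Egr1 and 0.03 for Myc and Klf4.

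Extract versus LPS asks how these genes differed in cells given the extract from the inflammatory model. Of the 8 genes, 5 fell in extract relative to LPS cells, none rose and 3 did not pass the threshold of an adjusted p below 0.05 (limma, adjusted over all tested genes). Of all tested genes, 59.4% were called in this comparison, 25.0% lower and 34.4% higher. The median log2 fold change was -0.795 over the 8 genes and 0.04 over all tested genes. The 5 genes were Ier3, Klf4, Fos, Myc and Dusp6, and the 3 others Fosl1, Jun and Egr1.

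Extract versus control asks how far the extract cells stood from the control cells. Here 4 of the 8 genes, Klf4, Dusp6, Myc and Jun, were lower in extract cells, none was higher and 4 did not pass. Over all tested genes 51.7% were called, 29.4% lower and 22.3% higher. The medians of the log2 fold changes were -0.42 over the 8 genes and -0.04 over all tested genes.

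LPS versus control addresses the inflammatory model itself. Ier3 and Myc were higher in LPS cells, Jun, Klf4 and Dusp6 were lower, and Fos, Fosl1 and Egr1 did not pass the threshold. Of all tested genes 40.7% were called, 9.79% higher and 30.9% lower. Lower genes made up 76% of all calls with TPM as deposited and 51.7% after the libraries were rescaled by the median of ratios, so a lower call among the 8 is read beside its rescaled value. The 3 comparisons share libraries in pairs, and their values are set side by side without counting how often they go together.

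**Figure D2:**
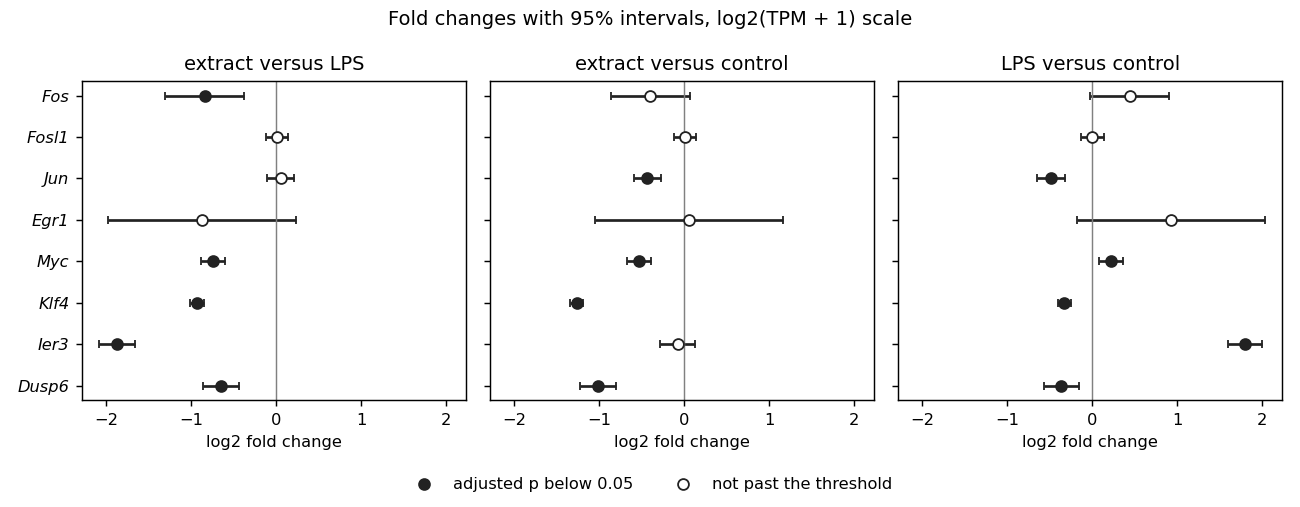
Log2 fold change on the log2(TPM + 1) scale (x axis) of the 8 genes (y axis) in each comparison, with 95% intervals from limma; filled points passed the adjusted p of 0.05. Ier3 lies farthest from 0 in both comparisons with LPS cells, and Klf4 and Dusp6 lie farthest on the lower side in extract versus control.

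The AP-1 subunits differed in level and in the comparisons in which they passed the threshold. Fos, the classic partner of JUN, was scarce, at 1.26, 1.28 and 1.60 TPM in extract cells, 2.38, 4.79 and 2.93 TPM in LPS cells and 2.66, 1.55 and 2.32 TPM in control cells. All 3 extract values lay below all 3 LPS values, while the control values overlapped with those of LPS and, through control replicate 2, with those of extract cells. Fos was lower in extract cells than in LPS cells, at a log2 fold change of -0.84 ± 0.21 (SE; limma adjusted p = 0.00611), and of -0.62 ± 0.18 without LPS replicate 2 (limma adjusted p = 0.0169). The difference was -0.40 ± 0.21 between extract and control (limma adjusted p = 0.132) and 0.44 ± 0.21 between LPS and control (limma adjusted p = 0.123). The LPS-control value was 0.21 without LPS replicate 2 (limma adjusted p = 0.391) and 0.29 without control replicate 2 (limma adjusted p = 0.331). At these levels the size depends on the constant added before taking logs, and extract versus LPS ranged from -0.38 with a pseudocount of 5 to -1.18 with 0.1, past the threshold in each case. Between 4.24% and 19.6% of tested genes lay below Fos in a library.

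Fosl1, which encodes the FOS-related protein FRA1 that pairs with JUN proteins but lacks the strong activation domain of FOS, was the abundant FOS family member of the pair measured. It stood at 60.99, 55.14 and 55.00 TPM in extract cells, 53.63, 60.86 and 56.02 TPM in LPS cells and 54.34, 57.92 and 58.18 TPM in control cells. The 3 groups overlapped throughout. Its log2 fold change was 0.0054 in extract versus LPS (95% interval -0.125 to 0.136), 0.0048 in extract versus control (-0.126 to 0.135) and -0.00067 in LPS versus control (-0.131 to 0.13). None passed the threshold (limma adjusted p = 0.946, 0.953 and 0.995). In TPM, Fosl1 exceeded Fos by 34.4 to 48.4 times in extract, 12.7 to 22.5 times in LPS and 20.4 to 37.4 times in control libraries.

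Jun encodes the AP-1 subunit that is phosphorylated by the JNK kinases. It was measured at 52.74, 56.42 and 57.12 TPM in extract cells, 48.47, 59.51 and 52.64 TPM in LPS cells and 71.88, 79.73 and 74.48 TPM in control cells. Every control library lay above every extract and LPS library. Relative to control, Jun had a log2 fold change of -0.44 ± 0.072 in extract cells (SE; limma adjusted p = 0.000723) and of -0.49 ± 0.072 in LPS cells (limma adjusted p = 0.000543). Extract and LPS cells overlapped through LPS replicate 2 alone, with a log2 fold change of 0.05 between them (95% interval -0.108 to 0.214; limma adjusted p = 0.552). Without LPS replicate 2 the extract-LPS value was 0.13 ± 0.059 (limma adjusted p = 0.0949). After rescaling by the median of ratios the LPS-control difference was -0.40 and still passed (limma adjusted p = 0.0036).

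Egr1, a zinc finger factor that growth factors are known to induce through SRF, gave the most uneven values of the set. It stood at 31.93, 33.02 and 33.79 TPM in extract cells, 38.46, 173.18 and 33.59 TPM in LPS cells and 30.20, 31.64 and 33.24 TPM in control cells. LPS replicate 2 was at 546% of the control mean, while the other 8 libraries lay between 30.20 and 38.46 TPM. The coefficient of variation among the LPS libraries was 96.9%, against 2.84% among extract and 4.8% among control libraries and a median of 5.8% over all tested genes in the LPS group. Both other LPS libraries lay above all 3 control libraries, by a narrow margin in the case of LPS replicate 3. With all libraries, Egr1 had an extract-LPS log2 fold change of -0.87 ± 0.49 (SE; limma adjusted p = 0.158) and an LPS-control one of 0.92 ± 0.49 (limma adjusted p = 0.167). Without LPS replicate 2 these became -0.12 ± 0.065 (limma adjusted p = 0.141) and 0.18 ± 0.065 (limma adjusted p = 0.0681). Extract versus control, which does not involve the LPS values, was 0.05 in both fits, with an SE of 0.49 when LPS replicate 2 entered the pooled spread and 0.058 when it did not. A single library more than 2-fold above all 8 others (on TPM + 1) was found for 10 tested genes in LPS replicate 2 and for 4 to 19 in the other libraries, and Egr1 was the 9th highest such ratio in LPS replicate 2, at 4.41. What set this library apart was not tested.

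**Figure D3:**
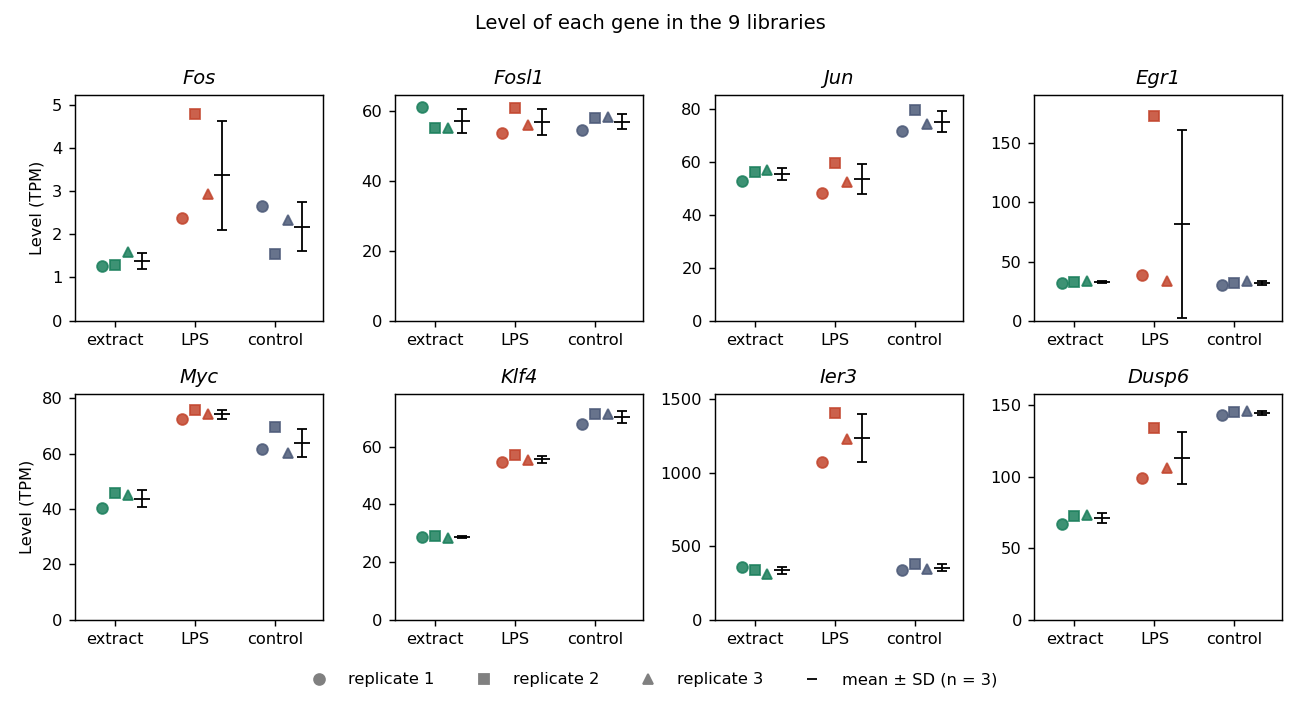
Level in TPM (y axis, from 0) of each gene in the extract, LPS and control groups (x axis); each symbol is one library, its shape gives the replicate number, and the black mark is the mean with its SD (n = 3). Ier3 is higher in each of the 3 LPS libraries than in any extract or control library. Klf4 and Dusp6 step up across extract, LPS and control cells, and Egr1 is raised in a single LPS library.

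Myc encodes the basic helix-loop-helix factor that drives growth and ribosome production. It stood at 40.36, 45.87 and 45.15 TPM in extract cells, 72.47, 75.77 and 74.32 TPM in LPS cells and 61.85, 69.54 and 60.35 TPM in control cells. None of the groups overlapped, with extract lowest and LPS highest. Myc averaged 43.8 ± 3.0 TPM in extract and 74.2 ± 1.7 TPM in LPS cells (SD, n = 3 each), a log2 fold change of -0.75 ± 0.063 (SE; limma adjusted p = 6.49e-06). Against the control mean of 63.9 ± 4.9 TPM, extract cells were lower, at -0.53 ± 0.063 on the log2 scale (limma adjusted p = 8.73e-05). LPS cells were higher than control cells by 0.21 ± 0.063 (limma adjusted p = 0.0221), a small difference that did not pass when LPS replicate 2 (limma adjusted p = 0.0685), LPS replicate 3 (0.0535), control replicate 1 (0.0735) or control replicate 3 (0.0785) was left out. The estimate stayed between 0.18 and 0.28 with any 1 library left out. After rescaling by the median of ratios, with all libraries, it was 0.31 (limma adjusted p = 0.00487).

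Klf4, a zinc finger factor known for restraining proliferation and for its role in pluripotency, varied little between replicates, with a coefficient of variation of 3.01% or less in every group. The values were 28.61, 28.97 and 28.34 TPM in extract cells, 54.65, 56.99 and 55.35 TPM in LPS cells and 67.77, 71.41 and 71.45 TPM in control cells. The groups did not overlap, and every extract library was below every LPS library, which was in turn below every control library. The mean was 28.6 ± 0.32 TPM in extract, 55.7 ± 1.2 TPM in LPS and 70.2 ± 2.1 TPM in control cells (SD, n = 3 each). Klf4 was lower in extract cells than in both others, with a log2 fold change of -0.93 ± 0.035 against LPS (SE; limma adjusted p = 6.51e-08) and of -1.26 ± 0.035 against control (limma adjusted p = 1.1e-08). In extract versus control 2.48% of tested genes had a larger change in either direction. LPS cells were below control, at -0.33 ± 0.035 (limma adjusted p = 7.4e-05), or -0.24 after rescaling (limma adjusted p = 0.00125).

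Ier3, a stress-inducible gene that NF-kB and ERK signalling are known to activate and that modulates cell survival, was the most abundant of the 8 and showed the largest change. It reached 357.69, 337.87 and 313.37 TPM in extract cells, 1077.08, 1407.99 and 1228.72 TPM in LPS cells and 337.94, 382.22 and 345.55 TPM in control cells. Extract and control values overlapped, and both lay far below the LPS values. The mean was 336.3 ± 22.2 TPM in extract, 1238 ± 166 TPM in LPS and 355.2 ± 23.7 TPM in control cells (SD, n = 3 each). Ier3 was lower in extract cells than in LPS cells, at -1.87 ± 0.092 on the log2 scale (SE; limma adjusted p = 2.67e-07), a size that 0.804% of tested genes exceeded. Between extract and control the log2 fold change was -0.08 (95% interval -0.285 to 0.128; limma adjusted p = 0.505). Ier3 was higher in LPS cells than in control cells, at 1.79 ± 0.092, a fold of 3.46 (limma adjusted p = 7.55e-07). Without LPS replicate 2 the extract-LPS value was -1.77 and the LPS-control value 1.70 (limma adjusted p = 9.3e-07 and 2.21e-06). By level Ier3 ranked between 110th and 437th of the tested genes in a library.

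Dusp6, the cytoplasmic phosphatase that is specific for ERK and is itself induced by ERK signalling, was the one dual-specificity phosphatase of the list with a row. It stood at 67.13, 72.73 and 73.60 TPM in extract cells, 99.23, 133.98 and 106.19 TPM in LPS cells and 143.16, 145.51 and 145.75 TPM in control cells. The groups did not overlap and followed the order seen for Klf4, with LPS replicate 2 close to the control libraries. The mean was 71.2 ± 3.5 TPM in extract, 113.1 ± 18.4 TPM in LPS and 144.8 ± 1.4 TPM in control cells (SD, n = 3 each). Dusp6 was lower in extract cells than in both others, at -0.65 ± 0.093 against LPS (log2 fold change ± SE; limma adjusted p = 0.000227) and -1.02 ± 0.093 against control (limma adjusted p = 1.79e-05). LPS cells were below control, at -0.37 ± 0.093 (limma adjusted p = 0.0117), a call that did not pass after rescaling by the median of ratios, at -0.27 (limma adjusted p = 0.0649). Without LPS replicate 2 the LPS-control difference was -0.49 ± 0.049 (limma adjusted p = 0.000137). The extract-LPS difference was then -0.52 ± 0.0485 (limma adjusted p = 4.03e-05).

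Transcripts were linked to the 8 genes as consecutive rows of the transcript table that sum to the gene's TPM in every library. Fos, Jun, Fosl1, Egr1, Myc and Ier3 each had 1 transcript above 0 TPM. Dusp6 had 2, in similar shares. ENSRNOT00000037844 held 39.4% to 46.6% of the gene's TPM in extract, 43% to 48.7% in LPS and 44.3% to 48.6% in control libraries, and ENSRNOT00000111909 the remainder. Both were lower in extract cells relative to LPS, at log2 fold changes of -0.73 ± 0.14 (SE; limma adjusted p = 0.00287) and -0.57 ± 0.095 (limma adjusted p = 0.00147), among 39.1% of 19383 transcripts called in that comparison. Against control the extract values were also lower, at -1.07 and -0.96 (limma adjusted p = 0.000482 and 0.000123), where 32.0% of transcripts were called. In LPS versus control, where 23.0% were called, ENSRNOT00000037844 did not pass, at -0.34 ± 0.14 (limma adjusted p = 0.112), and ENSRNOT00000111909 was lower, at -0.38 ± 0.095 (limma adjusted p = 0.0198). Transcript levels were not rescaled by the median of ratios, so this lower LPS-control call has no rescaled value beside it. The difference between the 2 transcripts was not tested.

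Klf4 had 3 transcripts, and the level of the gene was steadier than its division among them. The main one, ENSRNOT00000022255, was at 13.05, 19.96 and 19.13 TPM in extract, 34.33, 30.06 and 24.26 TPM in LPS and 51.42, 52.43 and 37.57 TPM in control libraries. Its extract-LPS log2 fold change was -0.74 ± 0.19 (SE; limma adjusted p = 0.0151) and its extract-control one -1.40 ± 0.19 (limma adjusted p = 0.000756). LPS cells were lower than control cells in it, at -0.65 ± 0.19 (limma adjusted p = 0.0413), a call not checked by rescaling. ENSRNOT00000095509 was lower in extract cells in both comparisons, at -0.89 against LPS and -1.15 against control (limma adjusted p = 0.000422 and 0.000147), and did not pass in LPS versus control, at -0.26 (limma adjusted p = 0.153). ENSRNOT00000116294 passed in no comparison (limma adjusted p = 0.3 in extract versus LPS, 0.851 in extract versus control and 0.26 in LPS versus control), and ranged between 2.71 and 8.75 TPM in extract, 7.46 and 17.94 TPM in LPS and 0 and 19.35 TPM in control libraries. It was listed at 0 in 1 control library.

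**Figure D4:**
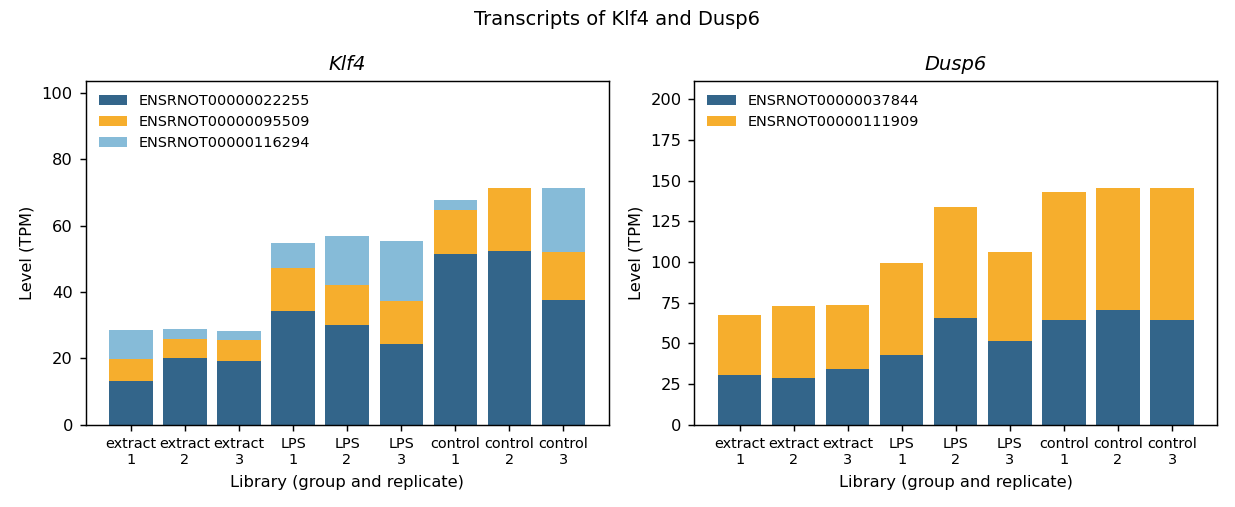
TPM (y axis) of the transcripts of Klf4 and Dusp6, stacked, in each library (x axis; extract, LPS and control, replicates 1 to 3). The whole bars step up across the 3 groups in both genes, the first Dusp6 transcript holds between 39.4% and 48.7% of each bar, and the third Klf4 transcript ranges from 0 to 19.35 TPM within the control group.

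Patterns were compared by Pearson's r of log2(TPM + 1) over the 9 libraries, given as a description because the libraries fall into 3 groups. Klf4 and Dusp6 were each other's most alike member, with r = 0.967. Myc was most like Klf4 at 0.842, Jun was most like Dusp6 at 0.722, and Fos was most like Myc at 0.763. Egr1 and Ier3 were both most like Fos, at 0.751 and 0.758, but without LPS replicate 2, a check added after the values were seen, their r with Fos was 0.182 and 0.604. Over those 8 libraries Egr1 was most like Ier3 at 0.646 and Ier3 most like Myc at 0.673. The pairing of Klf4 with Dusp6 stood at 0.974 without it, that of Myc with Klf4 at 0.858, that of Fos with Myc at 0.771 and that of Jun with Dusp6 at 0.765. Ier3 and Jun were the least alike pair over all 9 libraries, with r = -0.48, and Egr1 and Jun without LPS replicate 2, with r = -0.636. Fosl1 had its highest r with Egr1, at 0.494, which was -0.405 without that library.

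Among genes outside the set, the pattern of Ier3, the member with the widest range of group means at 1.87 on the log2 scale, was matched most closely by ENSRNOG00000007002 and ENSRNOG00000007793, with r = 0.998 and 0.996 over the 9 libraries. ENSRNOG00000007002 averaged 92.9 ± 8.6 TPM in extract, 302.9 ± 42.7 TPM in LPS and 98.7 ± 8.7 TPM in control cells (SD, n = 3 each). ENSRNOG00000007793 averaged 43.2 ± 2.3 TPM in extract, 91.3 ± 6.2 TPM in LPS and 44.3 ± 1.6 TPM in control cells. ENSRNOG00000054140 and ENSRNOG00000012436 ran most nearly opposite, both at r = -0.996. The first averaged 3739 ± 42 TPM in extract, 2917 ± 47 TPM in LPS and 3719 ± 31 TPM in control cells, and the second 39.8 ± 2.8 TPM in extract, 11.9 ± 1.1 TPM in LPS and 42.1 ± 1.7 TPM in control cells. The files pair these 4 identifiers with no name.

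By the order of group means, Klf4 and Dusp6 ran extract, LPS, control from low to high, with each neighbouring pair past the threshold except Dusp6 between LPS and control after rescaling. Myc ran extract, control, LPS, with the upper pair dependent on single libraries. Jun ran LPS, extract, control, with the upper pair past the threshold and the lower pair not. Ier3 ran extract, control, LPS, again with the upper pair past it and the lower pair not. Fos ran extract, control, LPS, with no neighbouring pair past the threshold. Fosl1 and Egr1 had no pair past it.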

How the data were processed

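RNA from 9 libraries of HBZY-1 cells was analysed from 2 tables that the authors deposited, one of 30560 genes and one of 54991 transcripts, both in TPM with a total of 1000000 per library. Per the submitters' processing notes, the tools were HISAT2 2.1.0, RSEM 1.3.3 and fastp, listed without roles or settings. Genome build, annotation and strandedness: not given in the sources used here. TPM keeps no depth, so no counting interval is given. Columns were matched to libraries by the code that opens each title. The members and lists were chosen with earlier results of these data known.

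Testing took genes whose mean over the libraries was 1 TPM or more, on log2(TPM + 1), with limma 3.58.1 in R 4.3.3. The model had a mean per group over all 9 libraries, a mean-variance trend, two-sided moderated tests and 6 residual degrees of freedom. Benjamini-Hochberg adjustment ran over all tested genes, with 0.05 as the threshold. The added 1 shrinks the fold changes of low genes. Transcripts were tested likewise, and linked to a gene where consecutive rows summed to it within 0.006 TPM per value. The procedure was tested on simulated data in which each gene had the same spread in every library. That test does not cover a library that stands apart, as LPS replicate 2 did for these genes. Named genes were all members with a row, and the 2 genes most and the 2 least like the member of widest range. Other pathway genes and cell type markers, listed by symbol, were not analysed here, since 0 identifiers of the reference table could be paired. Alternatives were another pseudocount, filter, scaling or fit, a replicate block, and leaving out each library.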

Additional observations from a re-analysis of the deposited data

How the results depend on the processing

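The number of the 8 genes called stayed at 4 in extract versus control, and at 4 or 5 in the other comparisons, under pseudocounts of 0.1 and 5, both other filters, both scalings, the replicate block, no trend, library weights, the fit of the 2 groups compared, and with any 1 library left out. With a filter of 5 TPM Fos was not tested. With 1 library left out the counts ranged from 4 to 5 in LPS versus control, from 5 to 5 in extract versus LPS and from 4 to 4 in extract versus control. Of the single-gene values, 434 kept direction and side of the threshold, 5 lost the threshold (Myc in LPS versus control without any of 4 libraries, and Dusp6 there after median-of-ratios scaling) and 14 changed sign. Those 14 were uncalled before and after, and the cause was not tested. For Fosl1 in LPS versus control (-0.00067) they were 0.0926 with median-of-ratios scaling, 0.0653 with quantile normalization, 0.0395 without LPS replicate 1, 0.0086 without LPS replicate 3, 0.0133 without control replicate 2 and 0.0165 without control replicate 3. For Fosl1 in extract versus LPS (0.0054) they were -0.0422 with median-of-ratios scaling, -0.0528 with quantile normalization, -0.0347 without LPS replicate 1, -0.0039 without LPS replicate 3 and -0.0428 without extract replicate 1. For Fosl1 in extract versus control (0.0048) they were -0.0435 without extract replicate 1 and -0.0264 without control replicate 1, and for Jun in extract versus LPS (0.05) the value was -0.0147 without LPS replicate 1. With 1 library left out, Fosl1 ranged from -0.0502 to 0.0395 in LPS versus control, from -0.0428 to 0.0549 in extract versus LPS and from -0.0435 to 0.0298 in extract versus control, and Jun from -0.0147 to 0.131 in extract versus LPS. With the replicate block 5, 5 and 4 genes were called in extract versus LPS, LPS versus control and extract versus control, and it changed no call. Libraries were not treated as paired by number: deviations of same-numbered libraries correlated between -0.0554 and 0.0951. Fos, the scarcest gene, was at 1.26 TPM or more in every library. Without depth, the number of reads behind its values is unknown.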
